A study of Mus musculus with 23 samples.

Results

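Expression reached under dexamethasone (Dex) was compared between primary mouse embryonic fibroblasts (MEFs) that carry the GRD/D form of the glucocorticoid receptor (GR) and MEFs with the unmodified receptor (GRwt/wt). The comparison used 6 of the 23 libraries of the series, namely the 3 GRD/D and the 3 GRwt/wt libraries that its labels give as Dex-treated, and no vehicle library. Values therefore describe levels after Dex and not the response to it. In GRD/D cells both alleles encode threonine in place of an alanine where the DNA-binding domains of a GR dimer touch. Both genotypes were on the FVB/NJ strain, were isolated from embryos at E13.5 and were kept for 5 h in 10 nM Dex. The study describes cultures from different mice for its experiment with more Dex, and the same setup for this one. The 3 GRL/L libraries, whose receptor has alanine in place of an isoleucine of its ligand-binding domain, and the 3 GRD+L/D+L libraries, with both changes, received the same treatment and served to place the GRD/D levels among the mutants.

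GR is a ligand-activated transcription factor of the nuclear receptor family. After binding a glucocorticoid it leaves its chaperones, enters the nucleus and binds as a homodimer to palindromic glucocorticoid response elements, from which it activates genes such as Fkbp5, Tsc22d3 and Per1. It also lowers the activity of inflammatory genes, in part without binding such palindromes itself. The GRD change weakens contacts between the 2 DNA-binding domains of a dimer, and mice with this receptor are widely used to separate functions that need these contacts from those that do not.

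The 6 libraries held 16452539 to 21141077 counts. Per-gene levels are given in CPM, counts scaled to library size with TMM factors, and differences as LFC, the log2 fold change of GRD/D over GRwt/wt, with its standard error (SE). A gene was called when its adjusted p, from edgeR throughout, was at most 0.05 and its absolute LFC at least 1. GRwt/wt libraries resembled each other less (lowest Spearman rho within the group 0.960) than GRD/D libraries did (0.984). In GRwt/wt replicate 1, deviations from the gene medians followed transcript GC content (rho 0.373, against -0.03 to 0.130 in the other 5). Y-linked transcripts were present in GRwt/wt replicates 2 and 3 and GRD/D replicate 3, and were at 0 in GRwt/wt replicate 1 and GRD/D replicates 1 and 2. Of the fibroblast markers, all 11 were detected and 0 were called, and their summed level was 32905 to 50496 CPM in GRwt/wt and 41194 to 50172 CPM in GRD/D.

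Of 14818 genes tested, 258 (1.74%) were called between the genotypes. In GRD/D, 117 genes (0.79%) were higher and 141 (0.952%) were lower. The median LFC over all genes was -0.0003. By the adjusted p alone 412 genes (2.78%) passed, of which 249 were lower in GRD/D. At least a 4-fold difference was seen in 93 of the 117 higher genes and in 54 of the 141 lower genes. The lower genes included glucocorticoid-induced genes and the higher genes included macrophage markers, both described below by lists.

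**Figure D1:**
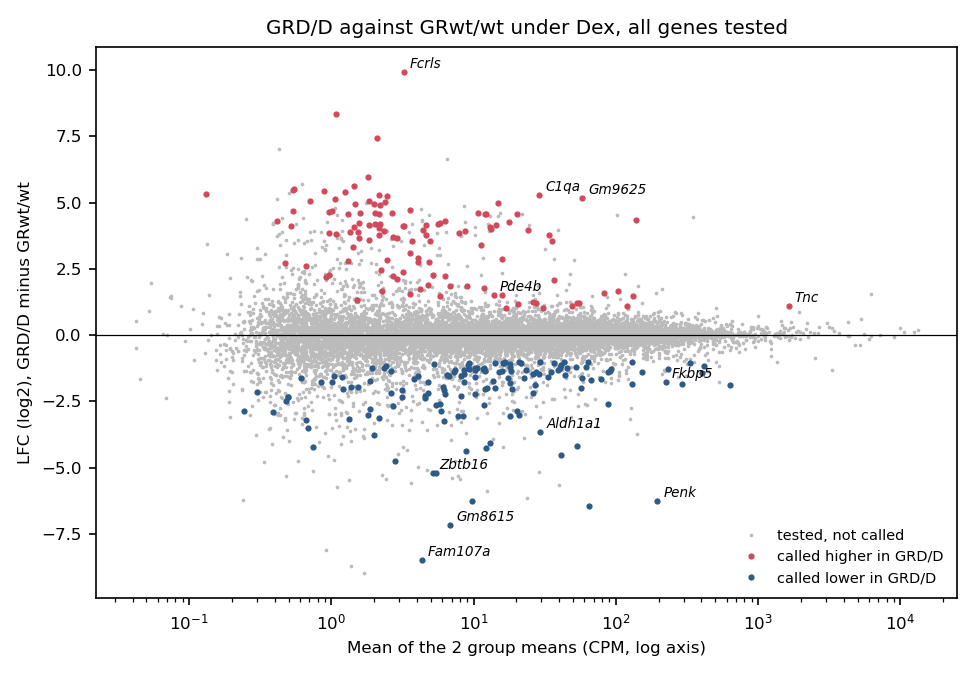
LFC of GRD/D minus GRwt/wt under Dex (vertical axis, log2) against the mean of the 2 group means (horizontal axis, CPM, log scale) for every gene tested. Red points are the 117 genes called higher and blue points the 141 called lower in GRD/D, and the large rises lie mostly at low CPM.

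The calls depended on single libraries. Without GRD/D replicate 1, 24 genes were called, and without GRD/D replicate 2, 21 genes. The count was 132 without GRD/D replicate 3, 217 without GRwt/wt replicate 1, 143 without GRwt/wt replicate 2 and 60 without GRwt/wt replicate 3. Only 16 of the 258 genes, 12 lower and 4 higher in GRD/D, were called in each of these 6 fits. With sex, read from Y-linked transcripts, as a covariate, 57 genes were called, 14 higher and 43 lower. The 16 genes are described together, and the loss of calls is given beside each other group of genes.

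**Figure D2:**
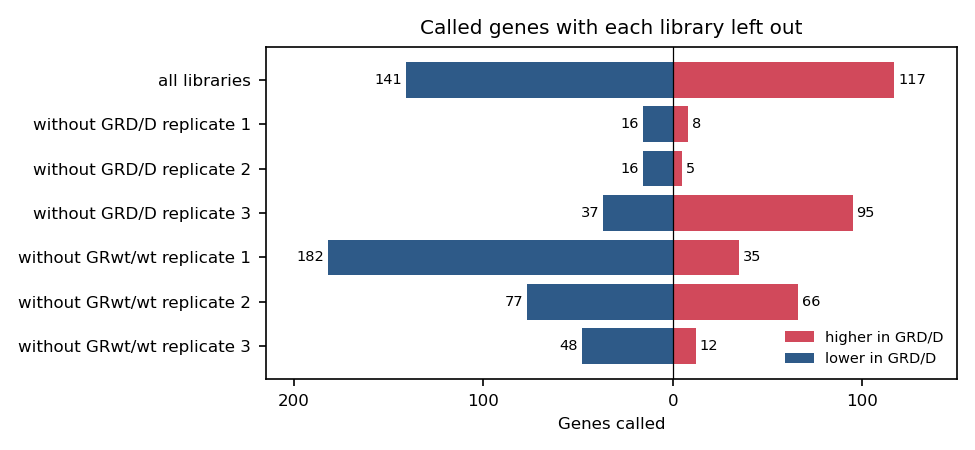
Number of genes called (horizontal axis) as lower in GRD/D (blue, to the left) and as higher (red, to the right), with all libraries and after leaving out each of the 6 libraries compared. Leaving out GRD/D replicate 1 or replicate 2 left 16 lower genes, with 8 and 5 higher genes.

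Nr3c1, the gene of GR, was not called. Its transcript reached 43.9, 81.4 and 76.8 CPM in GRwt/wt and 95.6, 92.5 and 90.5 CPM in GRD/D (LFC 0.46, SE 0.28, adjusted p = 0.426). Counts per gene cannot show the base change, so that this value is a level and not a check of genotype. Of 25 genes for GR, its chaperones and its coregulators, 1 was called, where 1.74% of all genes were. Hsd11b2, which inactivates natural glucocorticoids, was lower in GRD/D, at 0.511, 0.736 and 0.926 CPM against 1.54, 9.62 and 2.95 CPM (LFC -2.69, SE 0.59, adjusted p = 0.043), and its call was lost after leaving out any of the 6 libraries except GRwt/wt replicate 1. Without GRwt/wt replicate 2 its LFC was -1.62. Its call was also lost on the 6 libraries alone, with sex as a covariate and with replicate numbers as a block.

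In a list of 20 genes widely known as glucocorticoid-induced, all 20 had a lower fitted level in GRD/D, against a median LFC near 0 over all genes. The list was chosen with earlier results of these data known, so its counts describe these genes and do not test them. The list median was -1.05, with 7 genes called lower, where 0.952% of all genes were, and 11 genes past the adjusted p alone, where 2.78% of all genes were. The CPM of the groups did not overlap, with GRD/D lower, for 17 of the 20, against 12.5% of all genes tested, whereas 11.6% of all genes had GRD/D above GRwt/wt without overlap. Set against the GRwt/wt mean, the list median was -1.14, -1.27 and -1.15 in the 3 GRD/D libraries, and all 20 genes were below the GRwt/wt mean in each of them. A GRwt/wt library set in the same way against the other 2 gave -0.08, 0.31 and -0.31.

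Among the called members, Fkbp5 had the smallest p. It encodes a co-chaperone that lowers the affinity of GR for its ligand. Fkbp5 reached 345, 385 and 312 CPM in GRwt/wt and 117, 94.5 and 94.2 CPM in GRD/D. It fell by 1.77 on the log2 scale (SE 0.17, adjusted p = 0.00168), which left 29.4% of the GRwt/wt mean. Tsc22d3, encoding the anti-inflammatory protein GILZ, measured 209, 167 and 237 CPM in GRwt/wt against 59.4, 56.6 and 52.6 CPM in GRD/D (LFC -1.86, SE 0.26, adjusted p = 0.0112). In both genes the lowest GRwt/wt library lay well above the highest GRD/D library.

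The steepest falls of the list were in a pair of genes with low counts. Zbtb16, a zinc finger transcription factor, dropped from 2.74, 16.8 and 10.8 CPM to 0.341, 0.196 and 0.272 CPM (LFC -5.21, SE 0.75, adjusted p = 0.0201). Hif3a, a member of the hypoxia-inducible factor family, dropped from 3.78, 9.29 and 3.14 CPM to 0.17, 0.294 and 0.109 CPM (LFC -4.76, SE 0.68, adjusted p = 0.0131). Rgs2, which limits signalling through G proteins, was at 63.8, 276 and 116 CPM in GRwt/wt and 22.6, 29.4 and 22.8 CPM in GRD/D (LFC -2.61, SE 0.48, adjusted p = 0.0263). For these 3 genes the GRwt/wt libraries themselves spread widely, with replicate 2 highest each time.

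Dusp1 and Mt2 were called with smaller differences. Dusp1, a phosphatase of MAP kinases, gave 33, 28.8 and 22.7 CPM in GRwt/wt and 16, 13.9 and 11.7 CPM in GRD/D (LFC -1.03, SE 0.17, adjusted p = 0.0201). Mt2, a metallothionein, gave 372, 597 and 379.6 CPM against 234, 169 and 241 CPM (LFC -1.07, SE 0.23, adjusted p = 0.0416). Of the 7 called genes, Fkbp5 kept its call whichever library was left out. Without GRD/D replicate 1 or replicate 2 the other 6 lost theirs, with a highest adjusted p of 0.0601 for Tsc22d3, 0.0734 for Hif3a, 0.0788 for Dusp1, 0.0838 for Zbtb16, 0.100 for Rgs2 and 0.138 for Mt2 over the leave-out fits. Without GRD/D replicate 3, Fkbp5, Hif3a and Tsc22d3 kept their calls. Dusp1 also lost its call without GRwt/wt replicate 1, and Mt2 without GRwt/wt replicate 2 or 3. No left-out library turned the direction of any of the 7. Their groups did not overlap in CPM, which all but fixed this beforehand. With sex as a covariate Mt2 and Rgs2 lost their calls, and on the 6 libraries alone Dusp1 (adjusted p = 0.0502), Mt2 (0.0748) and Rgs2 (0.0594) did.

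A further 4 members passed the adjusted p with a difference under 2-fold. Per1, a component of the circadian clock, was at 82.7, 83.2 and 68.7 CPM in GRwt/wt and 45, 42.2 and 38.3 CPM in GRD/D (LFC -0.90, SE 0.12, adjusted p = 0.00789). Klf9, a Krüppel-like transcription factor, came to -0.98 (adjusted p = 0.0139), Mt1 to -0.74 (adjusted p = 0.0339) and Ddit4, an inhibitor of mTOR signalling, to -0.46 (adjusted p = 0.0319). Klf9 passed both thresholds without GRD/D replicate 3 or GRwt/wt replicate 1. The remaining 9 members did not pass here, although Pdk4 (adjusted p = 0.00107), Glul (0.00184) and Cebpd (0.0288) were called with DESeq2, and the first 2 also on the 6 libraries alone. Pdk4, a kinase that restrains pyruvate oxidation, measured 234, 294 and 147 CPM against 34.7, 11.6 and 28.3 CPM (LFC -3.18, SE 0.77, adjusted p = 0.0542), and Glul, glutamine synthetase, measured 121, 83.4 and 77.5 CPM against 35.9, 34.9 and 28.9 CPM (adjusted p = 0.0545). The groups did not overlap in either gene.

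Among the smaller falls were those of Sgk1, Angptl4 and Bcl6. Sgk1, a kinase that controls sodium transport, had 139, 189 and 204 CPM in GRwt/wt and 169, 122 and 143 CPM in GRD/D, so that the groups overlapped and GRD/D retained 81.8% of the GRwt/wt mean (LFC -0.29, SE 0.17, adjusted p = 0.416). Angptl4, an inhibitor of lipoprotein lipase, ranged from 37 to 355 CPM in GRwt/wt and from 77.9 to 138 CPM in GRD/D (LFC -0.50, adjusted p = 0.744), and its sign turned without GRwt/wt replicate 2 (LFC 1.06). Bcl6, at 39 to 46.6 CPM against 30.3 to 36.8 CPM, retained 79.9% (adjusted p = 0.111). The shares of the GRwt/wt mean left in GRD/D thus ran from 2.66% for Zbtb16 to 81.8% for Sgk1.

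**Figure D3:**
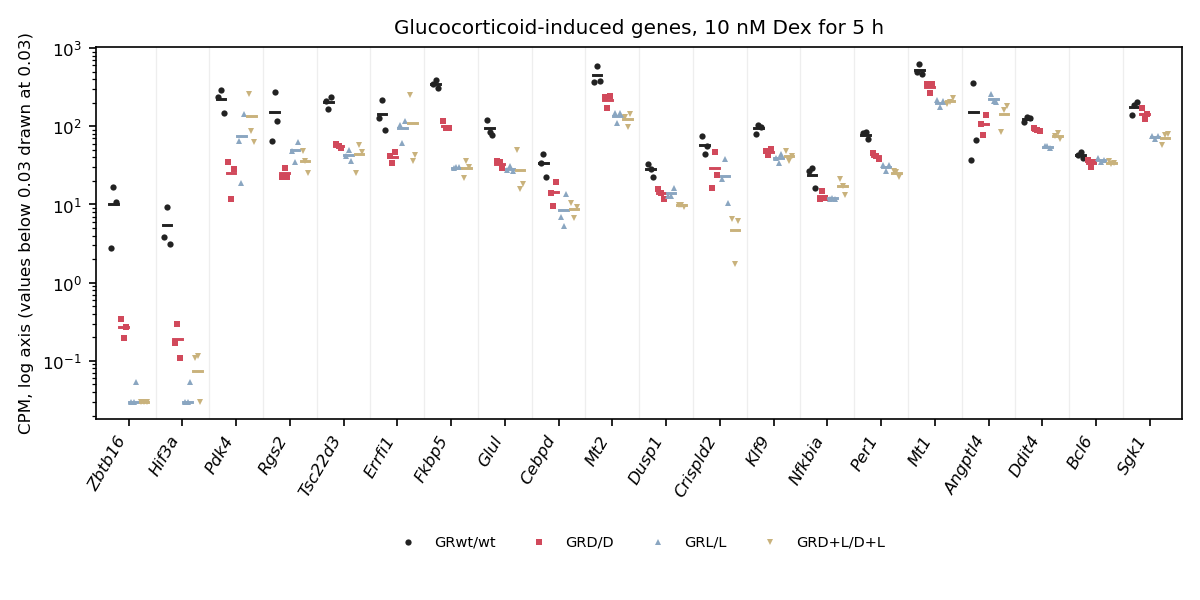
CPM (vertical axis, log scale) of the 20 glucocorticoid-induced genes in each of the 12 Dex libraries, ordered from the most to the least negative LFC of GRD/D against GRwt/wt. Points are libraries and bars are group means, and values below 0.03 CPM are drawn at 0.03 CPM. Fkbp5 shows GRD/D at 94.2 to 117 CPM, between GRwt/wt and the other 2 mutants, whereas Dusp1 levels of the 3 mutants lie close together.

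Compared directly with the other single mutant under Dex, GRD/D kept more of some of these transcripts. Against GRL/L, 1 of the 20 genes, Fkbp5, was called higher in GRD/D, where 1.24% of all genes were, and 0 were called lower, where 3.21% of all genes were. Another 4 passed the adjusted p alone, each with the higher level in GRD/D (Ddit4, Mt1, Per1 and Sgk1), where 7.9% of all genes passed with the higher level in GRD/D and 9.71% with the lower. The list median was 0.37, with 14 of the 20 genes above 0 and 6 below. Against GRD+L/D+L, 4 genes were called higher (Crispld2, Fkbp5, Sgk1 and Zbtb16), where 4.1% of all genes were, and Pdk4 was called lower, where 3.23% of all genes were. By the adjusted p alone 7 were higher and 1 lower, where 9.22% and 10.7% of all genes were. The list median there was 0.44, with 15 genes above 0 and 5 below. Both comparisons use the same 3 GRD/D libraries.

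Fkbp5 was the clearest case. It reached 28.9, 30.2 and 29.7 CPM in GRL/L and 21.8, 36.1 and 30.4 CPM in GRD+L/D+L, all below the 94.2 CPM of the lowest GRD/D library. GRD/D exceeded GRL/L by 1.78 (SE 0.17, adjusted p = 0.000497) and GRD+L/D+L by 1.79 (SE 0.17, adjusted p = 0.000614) on the log2 scale. Sgk1 was at 67.9 to 75.5 CPM in GRL/L and 57.5 to 78.9 CPM in GRD+L/D+L, with LFC of GRD/D of 0.99 (adjusted p = 0.00518) and 1.03 (adjusted p = 0.00462). Per1 (LFC 0.48 and 0.74) and Mt1 (LFC 0.66 and 0.60) also passed the adjusted p against both. Tsc22d3 did not pass the adjusted p against either. GRL/L held 42, 49.6 and 36 CPM, below every GRD/D library, and GRD+L/D+L held 25.3, 58 and 47.5 CPM, overlapping GRD/D. The LFC of GRD/D was 0.40 (SE 0.25, adjusted p = 0.29) and 0.37 (SE 0.25, adjusted p = 0.324). Dusp1 gave -0.0035 (SE 0.17, adjusted p = 0.991) against GRL/L. Set side by side, and sharing the GRwt/wt libraries, the list medians against GRwt/wt were -1.05 for GRD/D, -1.39 for GRL/L and -1.59 for GRD+L/D+L.

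Promoter sequences are shown for Fam107a, a gene called lower, and for Mt1 and Sgk1 of the list, because all 3 carry the same palindrome near their start and differ in how much transcript GRD/D retained. RefSeq promoter windows (GRCm38.p6, 250 bases before to 50 after a start) were matched by symbol for 10914 of the 14816 symbols tested. The palindrome searched was GNACANNNTGTNC, which reads the same on both strands. Capitals mark the matched 13 bases, and every sequence is written in the direction of its gene.

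Fam107a, chr14:8309728-8310027, minus strand: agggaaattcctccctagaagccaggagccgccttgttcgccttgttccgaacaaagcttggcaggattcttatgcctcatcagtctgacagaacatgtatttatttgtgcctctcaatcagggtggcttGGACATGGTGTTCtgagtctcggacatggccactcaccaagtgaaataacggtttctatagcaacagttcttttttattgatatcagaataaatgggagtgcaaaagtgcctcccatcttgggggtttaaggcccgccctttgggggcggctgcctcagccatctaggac

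Mt1, chr8:94178839-94179138, plus strand: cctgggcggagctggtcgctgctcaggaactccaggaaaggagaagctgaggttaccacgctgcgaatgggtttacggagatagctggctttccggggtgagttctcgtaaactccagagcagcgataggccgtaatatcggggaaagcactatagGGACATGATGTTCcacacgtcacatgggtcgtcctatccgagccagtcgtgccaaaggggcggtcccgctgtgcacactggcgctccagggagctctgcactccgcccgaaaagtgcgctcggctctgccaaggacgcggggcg

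Sgk1, chr10:21993640-21993939, plus strand: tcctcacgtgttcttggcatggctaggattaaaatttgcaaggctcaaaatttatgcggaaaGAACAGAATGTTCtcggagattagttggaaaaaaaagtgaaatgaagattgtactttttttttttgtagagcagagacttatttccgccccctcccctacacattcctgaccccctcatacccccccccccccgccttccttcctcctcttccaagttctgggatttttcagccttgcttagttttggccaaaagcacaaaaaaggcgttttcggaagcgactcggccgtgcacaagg

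The palindrome stood in the windows of 41 of the 10914 genes (0.376%), of 3 of 102 genes called lower (2.94%), of 0 of 82 called higher and of 2 of 17 glucocorticoid-induced genes (11.8%). The 3 called genes were Fam107a, Map3k6 and Map7d2, of which Map3k6 and Map7d2, picked out after their values were seen, are given with 8 flanking bases on each side.

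Map3k6, matched bases at chr4:133240637-133240649, plus strand: gaatagggGCACAGGCTGTTCcggaagtg

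Map7d2, matched bases at chrX:159459135-159459147, plus strand: acaggacaGGACACAGTGTTCacagtctg

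The stricter form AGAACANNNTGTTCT, which holds a palindrome match inside it, stood in 1 of the 10914 windows, that of Sgk1. A single arm of it, AGAACA or, on the other strand, TGTTCT, stood in 14.6% of all windows, 13.7% of those of genes called lower and 25.6% of those of genes called higher. A match is a description of letters in these windows. Map3k6, a MAP kinase kinase kinase, had 13.8, 12.7 and 11.1 CPM in GRwt/wt and 6.41, 5.55 and 5.23 CPM in GRD/D (LFC -1.13, adjusted p = 0.0207). Map7d2, a microtubule-associated protein, had 16.6, 11.5 and 16.7 CPM against 3.01, 0.294 and 2.12 CPM (LFC -3.05, adjusted p = 0.0476). Map3k6 lost its call without any one GRD/D replicate, and Map7d2 after leaving out any of the 6 libraries. Fam107a, a stress-responsive actin-binding protein, had 14.2, 4.79 and 6.84 CPM in GRwt/wt and 0, 0.0491 and 0 CPM in GRD/D, where a single count was found over the 3 libraries (adjusted p = 0.0131). It lost its call without GRD/D replicate 1 or 2 (highest adjusted p 0.0763). Mt1 retained 59.9% of its GRwt/wt mean and Sgk1 81.8%, as given above.

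The other genes with the largest falls in GRD/D were of mixed function. Angptl7, a secreted angiopoietin-like protein, was at 63.7, 214 and 108 CPM in GRwt/wt and 1.87, 1.13 and 1.42 CPM in GRD/D (LFC -6.45, SE 1.21, adjusted p = 0.0283). Ppl, the cytolinker periplakin, went from 19, 18.2 and 32.8 CPM to 1.87, 0.687 and 1.09 CPM (LFC -4.26, SE 0.74, adjusted p = 0.0238). Sult1a1, a sulfotransferase of phenolic compounds, went from 11, 13.9 and 6.9 CPM to 0.227, 0.54 and 0.0545 CPM (LFC -5.21, SE 1.02, adjusted p = 0.0326). In each of the 3 every GRwt/wt library lay far above every GRD/D library.

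In others GRwt/wt replicate 1 was the lowest of its group, though above every GRD/D library. Penk, the precursor of enkephalin peptides, had 11.6, 739 and 405 CPM in GRwt/wt against 5.68, 3.48 and 6.1 CPM in GRD/D (LFC -6.25, SE 1.43, adjusted p = 0.0476). Epyc, a small proteoglycan of cartilage, had 1.15, 39.2 and 17.5 CPM against 0.227, 0.344 and 0.163 CPM (LFC -6.25, SE 1.10, adjusted p = 0.0238). Tfap2b, a transcription factor of the AP-2 family, had 2.39, 24.6 and 23.9 CPM against 0.17, 1.28 and 0.98 CPM (LFC -4.36, SE 1.00, adjusted p = 0.0476). Rasd1, a Ras-related protein known to be inducible by Dex, had 0.697, 2.67 and 0.879 CPM against 0, 0.0491 and 0.163 CPM, at most 3 counts per GRD/D library (adjusted p = 0.0329). These 4 genes and Angptl7, Ppl and Sult1a1 were called without GRwt/wt replicate 1, but none of the 7 was called without GRD/D replicate 1, GRD/D replicate 2 or GRwt/wt replicate 3. Without GRD/D replicate 3 Rasd1 alone kept its call, and without GRwt/wt replicate 2 Epyc and Ppl did. With sex as a covariate all 7 lost their calls, and on the 6 libraries alone Penk, Epyc, Tfap2b and Rasd1 did. Group means of the other mutants were below the GRwt/wt mean in all 7, at 8.76 CPM (GRL/L) and 11.3 CPM (GRD+L/D+L) for Angptl7 and at 20 and 18.2 CPM for Penk.

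A pair of neighbouring aldehyde dehydrogenase genes was among the abundant lower genes. Aldh1a1, which oxidises retinal to retinoic acid, reached 91.8, 37.9 and 33.4 CPM in GRwt/wt and 5.79, 3.88 and 3.38 CPM in GRD/D (LFC -3.64, SE 0.44, adjusted p = 0.00683). Its neighbouring paralog Aldh1a7 reached 131, 58.9 and 111 CPM against 9.08, 3.34 and 4.41 CPM (LFC -4.17, SE 0.83, adjusted p = 0.0339). The 2 sequences are similar, so that uniquely mapped reads may split unevenly between them. Aldh1a1 was called whichever library was left out, whereas Aldh1a7 was called without GRwt/wt replicate 2 alone. Neat1, the long non-coding RNA of paraspeckles, showed another pattern. It was at 206, 261 and 201 CPM in GRwt/wt and 79.2, 61 and 113 CPM in GRD/D (LFC -1.40, SE 0.27, adjusted p = 0.0288), and at 178 to 319.7 CPM in the other mutants. The LFC of GRD/D was -1.48 against GRL/L (SE 0.27, adjusted p = 0.00569) and -1.53 against GRD+L/D+L (SE 0.27, adjusted p = 0.00523). The call of Neat1 against GRwt/wt was lost without GRD/D replicate 1 or 2 or GRwt/wt replicate 2 or 3.

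The 16 genes called whichever of the 6 libraries was left out were singled out after their values were seen. Baiap2, Cd38, Cited2 and Rnf19b lost their calls when GRD/D replicate 2 and GRwt/wt replicate 1 were both left out, and Gm8615 when every library needed at least 10 counts. The smallest adjusted p of the comparison belonged to Gpx8, a peroxidase of the endoplasmic reticulum. Gpx8 gave 125, 132 and 139 CPM in GRwt/wt and 47.6, 50.1 and 55.6 CPM in GRD/D (LFC -1.36, SE 0.08, adjusted p = 6.79e-05). The other mutants gave 114 to 120.2 CPM in GRL/L and 121 to 129.6 CPM in GRD+L/D+L, and GRD/D differed from both (LFC -1.20 with adjusted p = 8.01e-05, and -1.31 with adjusted p = 6.79e-05). Pdzd2, a protein with several PDZ domains, followed the same order, at 15.6, 18.4 and 25.9 CPM in GRwt/wt, 5.68, 4.47 and 5.07 CPM in GRD/D, and 12.6 to 19.2 CPM in the other mutants (LFC -1.97, SE 0.20, adjusted p = 0.00242).

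The other lower coding genes described here lay below every GRwt/wt library in all 3 mutants. Sesn1, a stress-induced regulator of mTOR signalling, gave 98.1, 133 and 74.9 CPM against 34.7, 34.1 and 26.9 CPM (LFC -1.68, SE 0.20, adjusted p = 0.00683). P2rx5, an ATP-gated channel, gave 15.8, 19 and 17.3 CPM against 7.32, 6.63 and 6.21 CPM (LFC -1.37, adjusted p = 0.00683), with 5.02 to 7.14 CPM in the other mutants. Stard10, a lipid transfer protein (LFC -1.98, adjusted p = 0.00579), Zhx3, a transcriptional repressor (LFC -1.49, adjusted p = 0.00582), Cited2, a partner of CBP and p300 (LFC -1.32, adjusted p = 0.00777), and Baiap2, an adaptor of the actin cytoskeleton (LFC -1.19, adjusted p = 0.00777), were the others named here, beside Fkbp5 and Aldh1a1.

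Higher in GRD/D were 4 of the 16, whose selection favours a small spread between replicates. Pde4b, a phosphodiesterase of cyclic AMP, gave 7.47, 7.79 and 6.28 CPM in GRwt/wt and 22.3, 19.9 and 19.1 CPM in GRD/D (LFC 1.51, SE 0.13, adjusted p = 0.00127). It was at 17.1 to 18.6 CPM in GRL/L (LFC of GRD/D 0.19, SE 0.13, adjusted p = 0.326) and at 4.22 to 5.34 CPM in GRD+L/D+L, from which GRD/D differed by 2.08 (SE 0.14, adjusted p = 6.79e-05). Rnf19b, a ubiquitin ligase, gave 33.7, 34.2 and 32.8 CPM against 64.4, 76.6 and 89.5 CPM (LFC 1.19, SE 0.16, adjusted p = 0.00858), with 22.9 to 34.5 CPM in the other mutants. Cd38, an enzyme that consumes NAD, gave 1.84, 1.88 and 2.32 CPM against 7.55, 8.59 and 6.43 CPM (LFC 1.90, SE 0.26, adjusted p = 0.0103). Gnpda1, a deaminase of glucosamine phosphate, gave 30.4, 35 and 30.4 CPM against 75, 75.4 and 71.5 CPM (LFC 1.21, SE 0.14, adjusted p = 0.00579). Gnpda1 lies on the same chromosome as Nr3c1, within 5 Mb of it, and stood at 27.5 to 31.8 CPM in GRL/L and 46 to 68.2 CPM in GRD+L/D+L. Of 129 tested genes within 5 Mb of Nr3c1, 2 were called (1.55%, against 1.74% of all genes), Gnpda1 and Cd14.

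**Figure D4:**
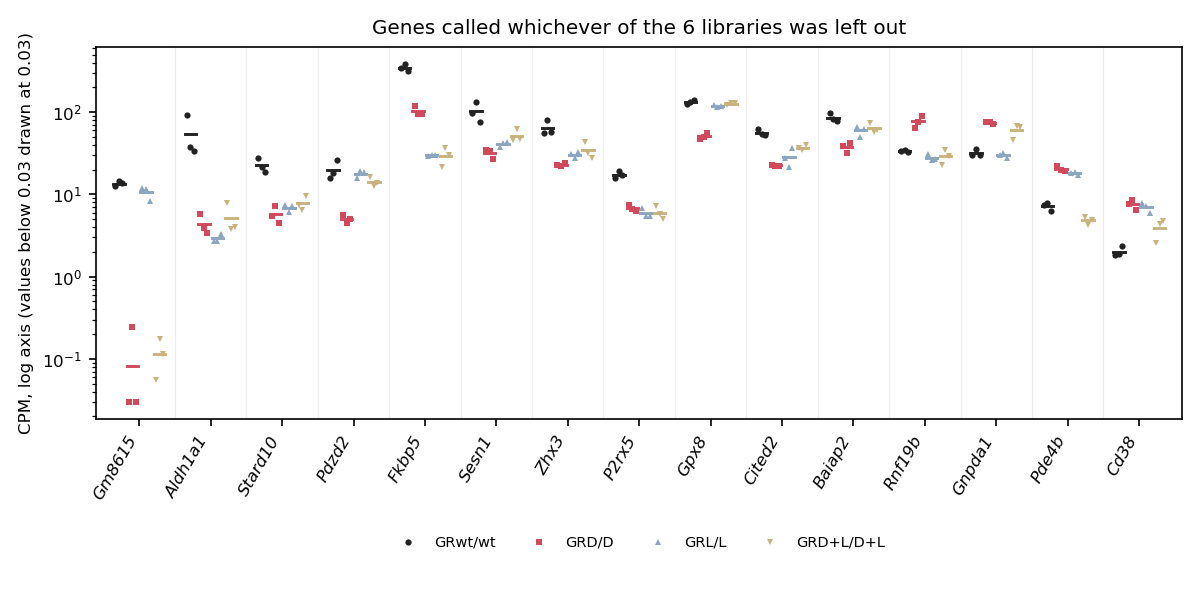
CPM (vertical axis, log scale) in each of the 12 Dex libraries for 15 of the 16 genes called whichever of the 6 compared libraries was left out, from the most negative to the most positive LFC. Points are libraries and bars are group means, and values below 0.03 CPM are drawn at 0.03 CPM. For Gpx8, GRD/D lies at 47.6 to 55.6 CPM, below the other 3 genotypes.

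A few pseudogenes differed sharply between the genotypes. Gm8615, a transcribed pseudogene that overlaps Hmgb1 and Mm2pr on the same strand, was at 12.5, 14.4 and 13.6 CPM in GRwt/wt and 0, 0.245 and 0 CPM in GRD/D (LFC -7.16, SE 0.64, adjusted p = 0.00127). It was at 8.21 to 11.9 CPM in GRL/L and 0.0545 to 0.173 CPM in GRD+L/D+L, so that the 6 libraries with the DNA-binding domain change were all low. Gm8730 and Gm9625, processed pseudogenes, were high instead. Gm8730 measured 16.7, 11.6 and 10.4 CPM in GRwt/wt and 255, 268 and 269 CPM in GRD/D (LFC 4.35, SE 0.82, adjusted p = 0.0288). Gm9625 measured 3.68, 2.63 and 2.95 CPM against 110.1, 116 and 112 CPM (LFC 5.19, SE 0.94, adjusted p = 0.0259). Among the double mutants, GRD+L/D+L replicates 2 and 3 were high and replicate 1 was low for both, at 10, 217 and 203 CPM for Gm8730 and 2.56, 93.3 and 85.8 CPM for Gm9625.

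The same 5 libraries were high in another pseudogene, Wsb2-ps, with 4.54, 3.44 and 4.52 CPM in GRD/D and 0, 3.58 and 3.23 CPM in GRD+L/D+L, against at most 1 count per GRwt/wt library (adjusted p = 0.0344). Counts of pseudogenes share sequence with their parent genes and are uncertain. Although the GRwt/wt and GRD/D levels were far apart, the calls of Gm8730, Gm9625 and Wsb2-ps were lost after leaving out any of the 6 libraries (highest adjusted p 0.0918, 0.0828 and 0.0988). Fitted on the 6 libraries alone, all 3 were called, among 5 of the 21 named higher genes that were. The cause of the lost calls was not tested. Slc2a4rg-ps, a transcribed pseudogene, was lower in GRD/D, at 0.341, 0.589 and 0.218 CPM against 1.64, 1.31 and 1 CPM (LFC -1.76, SE 0.36, adjusted p = 0.0381), and also lost its call with any library left out.

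Genes of macrophages, which can persist in fibroblast cultures from embryos, were among the higher genes. Per the study's methods, head and organs were removed before the cultures were made. All 14 macrophage markers listed had a higher fitted level in GRD/D, all 14 with non-overlapping CPM, where 11.6% of all genes were, and 6 were called higher, where 0.79% of all genes were. The summed level of the list was 34.2, 111 and 19.1 CPM in GRwt/wt and 941, 1902 and 296 CPM in GRD/D. In GRL/L it was 342.7 to 837 CPM and in GRD+L/D+L 8.33 to 87.1 CPM. Fcer1g, Itgam and C1qb were at 0 in GRwt/wt replicate 3, and no marker was at 0 in a GRD/D library. From bulk RNA, more cells of this type and more transcript per cell cannot be told apart.

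Csf1r, the receptor for macrophage colony-stimulating factor, measured 1.19, 2.77 and 1.82 CPM in GRwt/wt and 13.7, 42.3 and 6.05 CPM in GRD/D (LFC 3.41, SE 0.72, adjusted p = 0.0395). C1qa, a chain of complement C1q, measured 0.548, 3.52 and 0.126 CPM against 38.8, 117 and 13.6 CPM (LFC 5.27, SE 1.22, adjusted p = 0.0476). Itgam, the integrin chain CD11b, measured 0.0498, 0.235 and 0 CPM against 3.63, 6.14 and 0.98 CPM (LFC 5.05, SE 0.97, adjusted p = 0.0297). With single libraries left out the LFC ran from 2.34 to 3.85 for Csf1r, 4.17 to 7.28 for C1qa and 4.41 to 6.72 for Itgam. Fcer1g, Adgre1 and Cd14 were the other called markers, with LFC of 4.59, 4.06 and 1.75. Lyz2, the most abundant marker, was at 20.4, 63.7 and 6.72 CPM against 662, 1145 and 196 CPM but did not pass (LFC 4.46, SE 1.08, adjusted p = 0.0542). In GRD/D the order of the libraries was the same for all 14 markers, with replicate 2 highest and replicate 3 lowest.

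**Figure D5:**
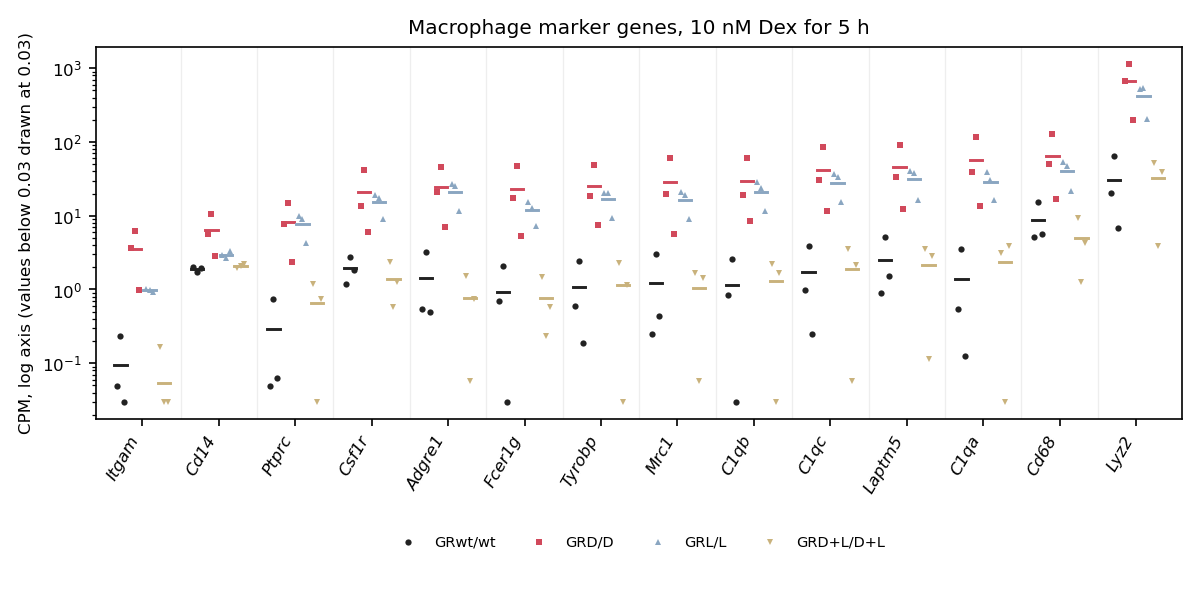
CPM (vertical axis, log scale) of the 14 macrophage markers in each of the 12 Dex libraries, ordered by the level in GRD/D replicate 2. Points are libraries and bars are group means, and values below 0.03 CPM are drawn at 0.03 CPM. GRD/D and GRL/L are above GRwt/wt, and within GRD/D replicate 2 is the highest for every marker.

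The same order of replicates held for 90 of the 117 genes called higher (76.9%), against 18.9% of all genes tested, and in 83 of the 117 (70.9%) the level in replicate 2 was at least 2 times that in replicate 3, against 5.11% of all genes. In 102 of the 117 every GRL/L library was also above every GRwt/wt library, against 3384 of the 14818 genes tested. The rises of GRD/D and GRL/L are set against the same GRwt/wt libraries. The marker levels moved with these rises, and their part in them was not tested. Fcrls, an Fc receptor-like gene of microglia and macrophages, had 0 counts in every GRwt/wt library and 2.04, 16.4 and 0.926 CPM in GRD/D (adjusted p = 0.0387), at least 34.3-fold higher when GRwt/wt is set to 3 counts in its smallest library. This bound rests on GRD/D replicate 2, without which it is 7.88-fold. Stap1, an adaptor of haematopoietic signalling, also had 0 counts in every GRwt/wt library and 2.55, 3.24 and 0.708 CPM in GRD/D (adjusted p = 0.0226), at least 11.5-fold higher on the same floor and 8.66-fold without GRD/D replicate 2.

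Abundant examples were Lcp1, the leukocyte actin-bundling protein plastin, at 1.89, 7.51 and 4.21 CPM against 45.1, 125 and 18.8 CPM (LFC 3.79, adjusted p = 0.0339), and Plek, pleckstrin, at 3.98, 9.2 and 3.7 CPM against 70.5, 107 and 19.8 CPM (LFC 3.54, adjusted p = 0.0238). Clec4n (1.2 to 7.12 CPM in GRD/D), Clec5a (0.654 to 5.06 CPM), both C-type lectin receptors, Bcl2a1b (0.599 to 4.71 CPM), Nxpe5 (0.654 to 1.62 CPM) and the pseudogene Gm8995 (0.654 to 3.29 CPM) had at most 3 counts per GRwt/wt library. Rgs1, a regulator of G protein signalling in leukocytes, came to 1.2 to 8.98 CPM in GRD/D (LFC 5.29, adjusted p = 0.0387), and Ms4a6b to 1.25 to 10.3 CPM (LFC 5.25, adjusted p = 0.0459). Ccl12, a monocyte chemokine, was alike in the GRD/D libraries, at 1.02, 1.23 and 0.98 CPM, with at most 1 count per GRwt/wt library (adjusted p = 0.0395). Of the 21 named higher genes, Tnc and the pseudogenes included, 0 were called without GRD/D replicate 1 or without replicate 2, whereas 14 were called without replicate 3. Without GRwt/wt replicate 1, 2 or 3, the number was 2, 5 and 1, and with sex as a covariate 1. On the 6 libraries alone 5 were called, none of them among the 6 macrophage markers.

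Transcription factors of embryonic patterning, which record the body region a fibroblast came from, tended to lower levels in GRD/D. Of 38 tested, 32 had an LFC below 0, with a median of -0.75, and 3 were called lower, where 0.952% of all genes were. Hand2 was at 19.1, 11.5 and 15.1 CPM in GRwt/wt and 4.94, 4.96 and 5.5 CPM in GRD/D (LFC -1.57, SE 0.35, adjusted p = 0.0475). Msx2 was at 5.23, 5.25 and 12.2 CPM against 1.42, 0.933 and 2.29 CPM (LFC -2.28, SE 0.49, adjusted p = 0.0405). Hand2 and Msx2 lost their calls without any one GRD/D replicate or GRwt/wt replicate 3, Msx2 also without GRwt/wt replicate 2 and Hand2 also without GRwt/wt replicate 1 or 2, with highest adjusted p of 0.159 for Hand2 and 0.139 for Msx2.

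Cartilage markers went the same way without passing the test. Of 6 chondrocyte markers tested all had an LFC below 0, the summed level was 49.2 to 156 CPM in GRwt/wt and 16.6 to 21.1 CPM in GRD/D, and 0 were called. The sum was 21.3 to 60.4 CPM in GRL/L, and 299.7, 19.2 and 21.6 CPM in the GRD+L/D+L libraries. Comp was at 0.597, 99.2 and 41.4 CPM against 0.341, 0.589 and 1.03 CPM (adjusted p = 0.0657). The Hox genes, of which 36 were tested, divided evenly, with 18 above and 18 below 0 and 0 called. Of endothelial, epithelial, skeletal muscle, osteoblast, neural and pericyte markers 1 to 7 were tested per list and 0 were called, and 0 of 6 erythroid markers were abundant enough to test.

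Of 33 collagen and matrix genes tested as a list, Tnc alone was called, a count near the 1.74% of all genes. Tenascin C, an adhesion-modulating matrix glycoprotein, measured 767, 998 and 1360.0 CPM in GRwt/wt and 2503, 1784 and 2408 CPM in GRD/D (LFC 1.10, SE 0.23, adjusted p = 0.04), and lost its call after leaving out any of the 6 libraries except GRwt/wt replicate 3. Matrix genes outside the list, such as Epyc, were called as well. Col11a1 passed the adjusted p alone, at 674, 659 and 697 CPM against 280.4, 409 and 329 CPM (LFC -0.996, SE 0.18, adjusted p = 0.0238). Of 22 matrix proteases and inhibitors, 1 was called lower, where 0.952% of all genes were. This was Adamts1, at 404, 736 and 582 CPM against 278, 264 and 229.8 CPM (LFC -1.16, SE 0.27, adjusted p = 0.0476), a call lost after leaving out any library other than GRwt/wt replicate 1.

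The inflammatory and metabolic lists held no called gene, although chemokines outside them, such as Ccl12, were called higher. None of 15 tested cytokines and inflammatory mediators was called (median LFC -0.003), and none of 18 factors of the NF-kB and AP-1 families, of which 15 lay below 0 (median -0.11). Nfkbia, the NF-kB inhibitor that also belongs to the glucocorticoid-induced list, was at 27, 28.9 and 16.4 CPM against 11.6, 14.7 and 12 CPM (LFC -0.92, SE 0.22, adjusted p = 0.0513) and was the lowest of that family. No gene was called among 22 interferon-stimulated genes, 27 cell cycle genes, 24 genes of glycolysis and hypoxia, 20 of cholesterol and fatty acid synthesis, 20 contractile genes, 16 targets of ATF4, 13 of the IGF system, 11 adipogenic genes, 22 imprinted genes and 76 cytosolic ribosomal proteins. Their median LFC lay between -0.50 and 0.21. Of 16 genes of the p53 pathway and senescence, Sesn1 was called. With 1.74% of all genes called, lists of these sizes would hold few or no called genes at the same share. Of 18 clock genes none was called, but Per1 and Tef passed the adjusted p alone, Tef at 107 to 124 CPM against 82.8 to 95.4 CPM (LFC -0.41, SE 0.09, adjusted p = 0.0416).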

How the data were processed

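RNA-seq of the 12 Dex libraries (4 genotypes, 3 each) was used, and vehicle libraries were not analysed here. The authors deposited raw read counts per Ensembl gene. Per the labels and the study's methods, TruSeq libraries were sequenced on a NovaSeq instrument, reads were aligned to mm10 (GRCm38) with HISAT2 2.1.0, uniquely mapped reads were retained, and featureCounts 2.0.0 counted them. Annotation release and strandedness are not given in the sources used here, so counts of overlapping or antisense genes, and of genes with near-identical copies, are uncertain.

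Of 55487 identifiers, 55227 matched GENCODE M21, which gave symbols and coordinates. Counts were analysed with edgeR 4.0.16 (R 4.3.3): filterByExpr, TMM, prior count 0.125, a quasi-likelihood fit with 1 mean per genotype and Benjamini-Hochberg adjustment over all genes tested. The 12 libraries shared the estimate of the spread. Lists were described by counts and medians. SE is the absolute LFC divided by the root of F. Labels give a genotype, a treatment and a replicate number per library. Replicates differed by more than sampling noise. The code was tested on simulated data.

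Named were Nr3c1 and the 20 glucocorticoid-induced genes, and, among called genes whose groups did not overlap in CPM and whose higher group averaged 1 CPM or more, the 10 coding and 3 other genes with the largest rise and fall, the 5 and 5 largest averaging 50 CPM or more, and up to 4 called members of each list. A few genes that meet these rules are not reported here. The genes, lists and rules were chosen with earlier results of these data known. Alternatives were RLE or upper-quartile scaling, other filters, adjusted p alone, the 6 libraries alone, a replicate block, sex as a covariate, DESeq2 1.42.0, a prior count of 2, a GC content and length correction, and leaving out libraries.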

Additional observations from a re-analysis of the deposited data

How the results depend on the processing

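The number of called genes changed with the fit and with single libraries, while the direction of the named genes seldom did. Many named genes were picked for groups without overlap in CPM, whose direction leaving out a library can hardly turn. Against 258 called genes (117 higher, 141 lower), no expression filter gave 401 (201 higher), a minimum of 10 counts in each library 123 (31 higher, 92 lower), the adjusted p alone 412 (249 lower), DESeq2 627 (291 higher, 336 lower), sex as a covariate 57 (14 higher, 43 lower) and the 6 libraries alone 195 (44 higher, 151 lower), of which 108 were among the 258, with 5 of 21 named higher and 15 of 26 named lower genes. RLE and upper-quartile scaling, the prior count and the GC content and length correction gave 257 to 295. Leaving out a library, or GRD/D replicate 2 and GRwt/wt replicate 1 together (an alternative added after the data were seen, which left 41, 4 higher and 37 lower), gave 21 to 217 called genes, 4 to 95 higher and 16 to 182 lower. The glucocorticoid-induced median ranged from -1.17 to -0.99 over the left-out libraries, and called members from 1 to 7, with 11 by the adjusted p alone, 10 with DESeq2, 9 without a filter and 5 to 8 in the other settings (Dusp1 was lost with the GC content and length correction, LFC -0.98, and Mt2 with the replicate block, adjusted p = 0.0618 and 0.153). Against GRL/L, 1 member was called, 2 under upper-quartile scaling, without a filter, with 10 counts in each library and with DESeq2, 3 with sex as a covariate, 5 by the adjusted p alone, and 1 to 3 with a library left out. Against GRD+L/D+L, 5 were called, 8 by the adjusted p alone, 3 with the replicate block, 2 with the GC content and length correction, and 2 to 4 with a library left out. Leaving out a GRL/L library, of neither genotype compared, left 3 to 8 of the 21 named higher genes called. Angptl4 turned positive with the replicate block on 6 libraries (LFC 0.24), with sex as a covariate (LFC 0.00933) and without GRwt/wt replicate 2 (LFC 1.06, over a leave-out range of -0.97 to 1.06), and no other named gene reversed. The replicate numbers were not shown to pair the samples, since deviations of equally numbered GRD/D and GRwt/wt libraries correlated at 0.03, 0.22 and 0.21, and not every library correlated best with its own number. The replicate block gave 195 called genes in 12 libraries and 320 in 6. The causes of these shifts were not tested. With 3 libraries per genotype, a gene that missed the thresholds cannot be read as unchanged.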
